A study of Homo sapiens with 6 samples.

Results

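Interferon-stimulated genes are the genes that cells switch on when an interferon binds its receptor. The set described here holds 50 of them, taken by gene symbol out of 58037 gene rows in the deposited expression table. The matching rule uses no measured value, but the list was chosen with earlier results of these data known. It covers transcription factors, RNA sensors, enzymes activated by double-stranded RNA and other antiviral effectors. The data come from HepaRG, a human hepatic line that differentiates in culture into hepatocyte-like and biliary-like cells, at passages 15 to 18. All cells had 14 days of growth, 14 days of differentiation and 5 days in basal medium with insulin and hydrocortisone. In the fatty acid group (3 libraries) the medium then carried 0.5 mM palmitate and oleate, 1 part to 2 parts, bound to 0.02% bovine serum albumin for 72 h. In the control group (3 libraries) it carried 0.02% albumin alone for 72 h. The labels name no added interferon, virus or nucleic acid in either group. Whether replicates of a group were separate cultures is not stated in the labels, and p-values therefore reflect only the spread between these libraries, which may be technical.

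Type I interferons bind a receptor made of IFNAR1 and IFNAR2, whose kinases JAK1 and TYK2 phosphorylate STAT proteins. STAT2 and IRF9 are subunits of the resulting complex ISGF3, which binds a promoter element called the interferon-stimulated response element (ISRE). Interferon-gamma acts through IFNGR1 and IFNGR2 and another element, the gamma-activated site (GAS), and IRF family factors bind ISRE-like sequences without interferon as well. In liver, hepatocytes are targets of these signals during viral infection, and many of the genes also have a basal level in the absence of infection.

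All 50 genes had at least 1 read in the 6 libraries. The table gives FPKM, in which a gene's fragments are divided by its length in kilobases and by the M reads assigned in that library. Of the 50 genes, 44 averaged at least 0.5 FPKM over the 6 libraries, the minimum for testing, and 41 averaged at least 1 FPKM. At 10 FPKM or more on average there were 13 genes, and at 100 FPKM or more there were 4, namely IFITM3, BST2, LGALS3BP and IFITM2. IRF9, IFITM1, MX2, RSAD2, CMPK2 and ISG20 stayed under the minimum and were not tested. In the fatty acid libraries 17 of the 44 tested genes were higher, 38.6%, where 8.22% of all 14661 genes tested were called higher (limma, adjusted p under 0.05 over all genes). None was called lower by limma, against 4.68% of all genes. As the list was chosen with earlier results of these data known, these shares only describe it. At an unadjusted p under 0.05 the limma counts were 24 higher and 0 lower, and no share over all genes was computed at that threshold. The alternative limma voom on the recovered reads called 21 higher and 0 lower. Over all 14661 genes voom called 1846 higher (12.6%) and 1153 lower, also more than the main fit. Rises were small: the log2 fold changes of the 17 genes lay between 0.30 and 0.60, and the median over the 44 was 0.27, where the median over all genes tested was 0.04. These are differences of log2(FPKM + 0.5), a scale that understates the change of genes with low FPKM.

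The count of called genes depended on single libraries. It was 5 without fatty acid replicate 1, 5 without fatty acid replicate 2, 10 without fatty acid replicate 3 and 10 without control replicate 3, and 14 without either of the other controls. Over all genes tested, the share called higher fell from 8.22% to 1.57%, 1.63% and 3.62% without fatty acid replicates 1, 2 and 3. It was 7.54%, 6.36% and 4.36% without control replicates 1, 2 and 3, so the loss of calls was not particular to the list. IRF1, GBP2 and UBE2L6 were called in each of these 6 fits, while DDX60 and IFIT3 were called in none of them. All 17 genes kept a positive fold change in the 6 fits and in 11 other alternatives. As the groups of all 17 do not overlap, leaving out 1 library could not turn their sign. The 6 fits are therefore no test of direction. Rescaling by the median of ratios gave 12 called genes. The same rescaling gave 717 genes higher and 861 lower over the whole table, where the deposited scale gave 1205 higher and 686 lower. Rescaling to TPM gave 23 called genes of the list, with 2615 higher and 412 lower over the table, and moved the median of all genes to 0.16.

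Depth and composition differed between the groups. The libraries held 8.36, 14.36 and 15.94 M reads in the fatty acid group, against 8.96, 6.33 and 11.82 M reads in the control group. Mitochondrially encoded genes took 9.15% to 11.91% of the reads in the fatty acid libraries, against 12.23% to 14.96% in the control libraries. Among 8 hepatocyte markers, 2 (FGB, SERPINA1) were called higher and 5 (ALB, APOA1, TTR, TF, HNF4A) lower, and their summed level was 12229.1 to 12727.7 FPKM in the fatty acid libraries against 16136.4 to 16804.6 FPKM in the control libraries. The part of depth, mitochondrial share and marker levels in the interferon-stimulated gene values was not tested. In these bulk samples fewer cells of a type and less RNA per cell cannot be told apart.

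Promoter sequence was read from RefSeq windows (build GRCh38.p14) of 250 bases before to 50 bases after the gene start, which exist for 38 of the 50 genes. The letters GAAA, NN and GAAA joined without a gap (N is any base), a core form of the ISRE searched on both strands, stood in 25 of the 38 windows (65.8%), where 3.57% of the 35116 windows of the genome held them. The letters TTCNNNGAA, a form of the GAS that reads alike on both strands, stood in 10 of the 38 (26.3%), where the genome share was 7.66%. In 3 genes the matches of the 2 motifs overlapped each other. The following 6 stretches are the 200 bases before the RefSeq start, read 5′ to 3′ on the strand of the gene, with the ISRE letters in capitals. GBP1 (chr1:89065209-89065408, minus strand), PLSCR1 (chr3:146544608-146544807, minus strand), OAS3 (chr12:112938274-112938473, plus strand) and DDX60 (chr4:168318753-168318952, minus strand) are shown because they had the largest rises among called genes with such a match wholly before the start. IFITM3 (chr11:320861-321060, minus strand) and LGALS3BP (chr17:78979924-78980123, minus strand) are shown because they were among the most abundant genes of the list and were not called. In GBP1 the match lies on the opposite strand, so its capitals are the reverse complement of the motif.
GBP1: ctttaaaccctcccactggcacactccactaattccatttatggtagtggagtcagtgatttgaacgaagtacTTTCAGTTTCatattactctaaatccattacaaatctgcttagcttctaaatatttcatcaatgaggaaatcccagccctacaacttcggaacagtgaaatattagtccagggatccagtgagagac
PLSCR1: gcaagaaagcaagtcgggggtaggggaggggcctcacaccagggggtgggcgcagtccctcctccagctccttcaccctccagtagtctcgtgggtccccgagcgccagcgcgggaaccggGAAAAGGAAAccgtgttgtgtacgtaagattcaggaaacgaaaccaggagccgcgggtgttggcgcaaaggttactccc
OAS3: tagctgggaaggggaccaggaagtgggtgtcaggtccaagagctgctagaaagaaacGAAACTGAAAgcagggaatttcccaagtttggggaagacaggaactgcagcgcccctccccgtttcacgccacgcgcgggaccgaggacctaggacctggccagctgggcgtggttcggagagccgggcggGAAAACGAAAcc
DDX60: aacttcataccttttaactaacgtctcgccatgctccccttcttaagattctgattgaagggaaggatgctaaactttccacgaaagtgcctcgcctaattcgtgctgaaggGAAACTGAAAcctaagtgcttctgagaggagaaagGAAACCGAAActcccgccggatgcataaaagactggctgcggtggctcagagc
IFITM3: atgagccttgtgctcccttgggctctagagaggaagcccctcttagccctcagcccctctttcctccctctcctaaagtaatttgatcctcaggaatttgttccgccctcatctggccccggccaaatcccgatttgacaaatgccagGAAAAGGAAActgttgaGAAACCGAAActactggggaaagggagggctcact
LGALS3BP: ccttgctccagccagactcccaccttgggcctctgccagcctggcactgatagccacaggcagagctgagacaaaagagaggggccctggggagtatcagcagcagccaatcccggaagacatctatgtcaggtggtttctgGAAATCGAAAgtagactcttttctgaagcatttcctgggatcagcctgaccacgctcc

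OAS3, DDX60 and IFITM3 each carried 2 matches in this stretch, and GBP1, PLSCR1 and LGALS3BP carried 1. Over the 25 genes there were 44 matches, of which 41 began before the start, the farthest at 164 bases. In 15 genes the window held 2 or more matches and in 4 genes it held 3, and in 5 genes matches overlapped each other. The letters were found in 9 of 12 windows of called genes (75.0%), in 14 of 21 windows of tested genes that were not called (66.7%) and in 2 of 5 windows of untested genes (40.0%). The GAS letters stood in 4 of the 12 (33.3%), 4 of the 21 (19%) and 2 of the 5. IRF1, UBE2L6 and SAMD9L were called higher and had no ISRE letters in the window. The windows start at the RefSeq start, which need not be the outermost end of the gene in the expression table.

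**Figure D1:**
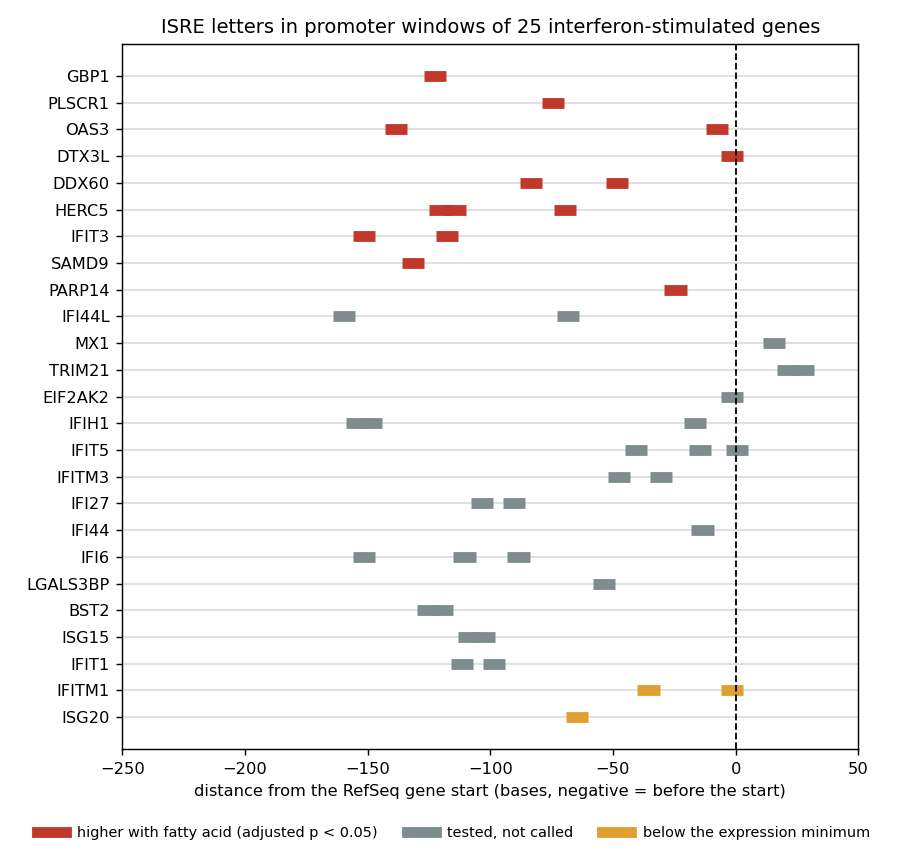
Position of the ISRE letters (bars) relative to the RefSeq gene start (dashed line, in bases) in the 25 genes whose window holds them, with genes called higher in red, tested genes that were not called in grey and untested genes in orange. Of the 44 matches, 41 begin before the start, and genes that were called and genes that were not called both carry matches at like distances.

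Of the 5 transcription factors, IRF7 and IRF1 rose, STAT2 and IRF2 were not called and IRF9 was too low to test. IRF1 (chr5:132481609-132490798, minus strand, GRCh38), an activator that is itself induced by interferon, stood at 3.39, 3.42 and 3.76 FPKM in the fatty acid libraries, against 2.33, 2.21 and 2.15 FPKM in the control libraries. The groups did not overlap, and the means were 3.52 ± 0.209 FPKM with fatty acid and 2.23 ± 0.0934 FPKM in control (SD, n = 3 each). The log2 fold change was 0.56 ± 0.08 (SE, adjusted p = 0.00739), and 22.0% of the exonic bases of IRF1 are shared with genes on the opposite strand. IRF7 (chr11:612553-615999, minus strand), the factor that amplifies interferon production, stood at 3.91, 4.08 and 4.01 FPKM with fatty acid, against 2.93, 2.16 and 2.35 FPKM in control. Control replicate 1 lay above the other controls and still below every fatty acid library. The log2 fold change of IRF7 was 0.60 ± 0.11 (adjusted p = 0.0141), the call being lost without fatty acid replicate 1 (adjusted p = 0.0629) or 2 (adjusted p = 0.0708).

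STAT2, the subunit of ISGF3 that carries its main activation domain, was the most abundant factor of the class, at 29, 25.4 and 30.2 FPKM with fatty acid against 32.2, 28.6 and 29.3 FPKM in control. The groups overlapped, and the log2 fold change was -0.09 (95% interval -0.28 to 0.09, adjusted p = 0.476). IRF2, which competes with IRF1 for the same sites, stood at 9.94, 10.7 and 11.1 FPKM with fatty acid and 9.16, 11.1 and 9.47 FPKM in control, with a log2 fold change of 0.09 (95% interval -0.11 to 0.29). These intervals leave out changes as large as the estimates of IRF1 and IRF7, though a difference between genes was not tested. IRF9 (chr14:24161053-24166565, plus strand), the DNA-binding subunit of ISGF3, was listed at 0.189, 0.22 and 0.165 FPKM with fatty acid and 0.206, 0.25 and 0.334 FPKM in control, from 28 reads in each group. In GENCODE 29, 48.4% of its exonic bases are shared with another gene on the same strand, which had 9 reads with fatty acid and 14 in control. The part of this overlap in the low value of IRF9 was not tested.

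**Figure D2:**
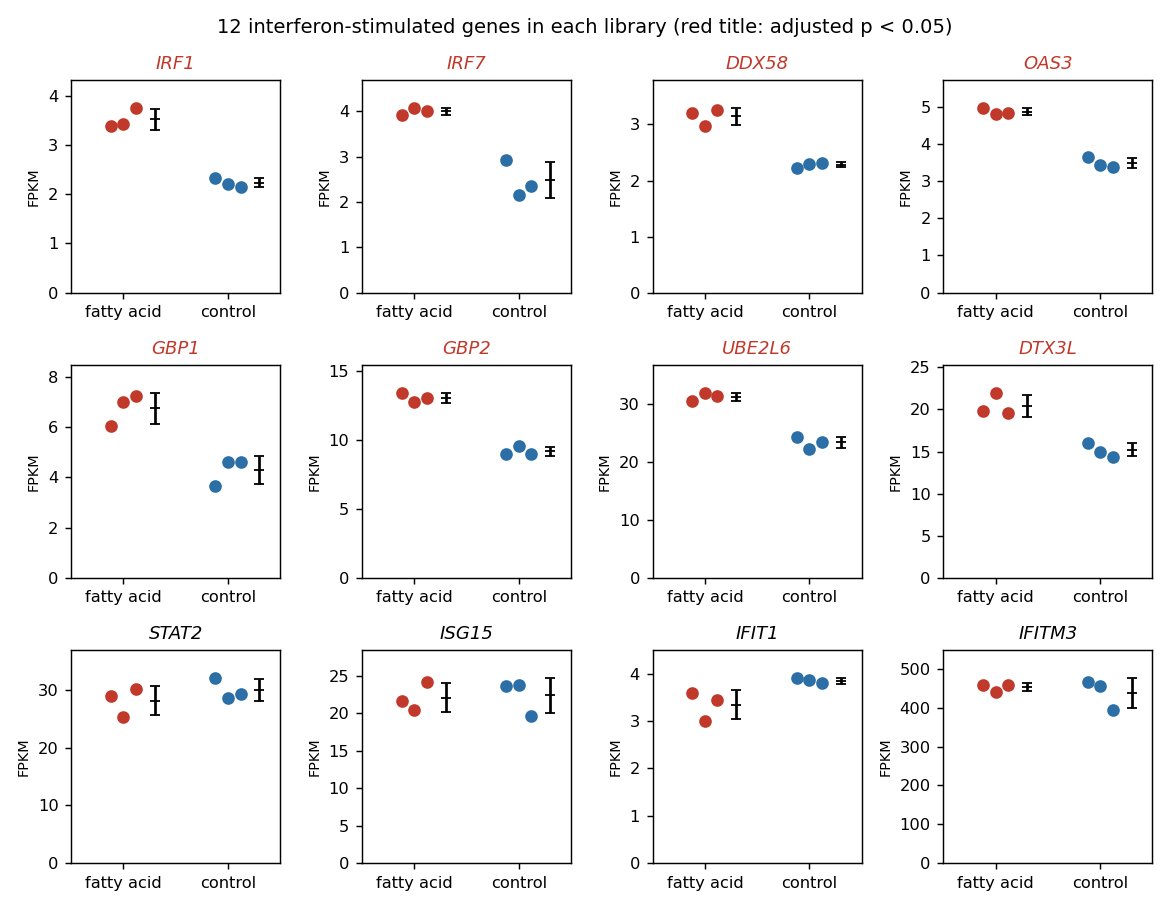
FPKM of 12 interferon-stimulated genes in each library (points, fatty acid left in red, control right in blue, replicates 1 to 3 from left to right) with the mean and SD of each group in black and every axis starting at 0. The 8 genes with red titles were called higher and their groups do not overlap, whereas the fatty acid and control values of STAT2, ISG15 and IFITM3 overlap and those of IFIT1 lie below its controls without being called.

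The 4 RNA sensors are helicases that detect viral RNA in the cytosol or modulate that detection, and 2 of them rose. DDX58, which encodes RIG-I (chr9:32455705-32526324, minus strand), stood at 3.21, 2.98 and 3.26 FPKM with fatty acid, against 2.23, 2.29 and 2.31 FPKM in control. Its lowest fatty acid library lay above its highest control, with a log2 fold change of 0.39 ± 0.08 (adjusted p = 0.022). Leaving out control replicate 3 or any fatty acid library ended the call of DDX58 (adjusted p up to 0.0996). DDX60 (chr4:168216293-168318807, minus strand), a helicase linked to RIG-I signalling, stood at 2.66, 2.32 and 2.18 FPKM with fatty acid, against 1.60, 1.82 and 1.67 FPKM in control. Its groups did not overlap either (log2 fold change 0.39 ± 0.10, adjusted p = 0.0481), though no fit that left out 1 library called it (adjusted p up to 0.172).

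DHX58, which encodes the regulator LGP2, had the highest level of the class, at 5.04, 3.95 and 5.47 FPKM with fatty acid and 4.88, 4.52 and 4.73 FPKM in control. The fatty acid libraries lay on both sides of the controls, and the log2 fold change was 0.02 (95% interval -0.24 to 0.28), negative on median-of-ratios scaling. IFIH1, which encodes MDA5, was not called at 4.94, 5.24 and 4.42 FPKM with fatty acid and 3.89, 4.33 and 4.04 FPKM in control, although its groups did not overlap (adjusted p = 0.121).

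In the group of 5 genes made up of the OAS family and EIF2AK2, the oligoadenylate synthetases OAS3 and OAS2 rose. When double-stranded RNA activates them, OAS3 and OAS2 make the messenger that activates RNase L. OAS3 (chr12:112938352-112973249, plus strand) stood at 4.98, 4.81 and 4.83 FPKM with fatty acid, against 3.64, 3.43 and 3.39 FPKM in control. All 3 fatty acid values were more than 1 FPKM above every control (log2 fold change 0.43 ± 0.07, adjusted p = 0.00976), and the call was lost without fatty acid replicate 1 (adjusted p = 0.0597) or 2 (adjusted p = 0.0515). OAS2 (chr12:112978395-113011723, plus strand) stood at 3.32, 3.69 and 4.14 FPKM with fatty acid, against 2.96, 2.65 and 2.20 FPKM in control. Its libraries were more spread than those of OAS3 (log2 fold change 0.45 ± 0.12, adjusted p = 0.0492), and only the fit without control replicate 1 still called it, the others giving an adjusted p of up to 0.149.

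EIF2AK2, which encodes the kinase PKR, was the most abundant of the class at 7.50, 7.80 and 7.88 FPKM with fatty acid and 5.96, 7.49 and 6.10 FPKM in control. Control replicate 2 came close to the fatty acid libraries, and the gene was called by voom but not by limma (log2 fold change 0.24 ± 0.09, adjusted p = 0.132). OASL had a log2 fold change of 0.50 ± 0.20 (adjusted p = 0.151) from 116 reads with fatty acid and 48 in control. OAS1 had one of 0.03 ± 0.11 (adjusted p = 0.862).

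Of the 4 IFIT genes, a family of antiviral effectors, 1 was called. IFIT3 (chr10:89327894-89340971, plus strand) stood at 11.8, 10.8 and 13.3 FPKM with fatty acid, against 9.51, 9.93 and 8.55 FPKM in control. The groups did not overlap, and the log2 fold change of 0.34 ± 0.09 had an adjusted p of 0.0495, close to the threshold. No fit without 1 library called IFIT3 (adjusted p up to 0.144). IFIT1, which binds RNA caps that lack a methyl mark, stood at 3.60, 3.00 and 3.45 FPKM with fatty acid, against 3.92, 3.87 and 3.80 FPKM in control. It was the one tested gene of the 44 whose fatty acid values all lay below its controls, and it was not called (log2 fold change -0.18, 95% interval -0.38 to 0.02, adjusted p = 0.193). IFIT2 and IFIT5 were not called either (log2 fold changes 0.26 ± 0.10 and 0.20 ± 0.16).

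The membrane restriction factors, which block virus entry or hold budding virions, were the most abundant class and none of them was called. IFITM3 (chr11:319669-327537, minus strand) stood at 459, 441 and 460 FPKM with fatty acid, against 466, 456 and 395 FPKM in control. The means were 453 ± 10.5 FPKM with fatty acid and 439 ± 38.4 FPKM in control (SD, n = 3 each), and the log2 fold change of 0.05 had a 95% interval of -0.11 to 0.22. BST2, which encodes tetherin, averaged 148 ± 3.73 FPKM with fatty acid and 150 ± 16.0 FPKM in control, and IFITM2 averaged 125 ± 3.49 FPKM with fatty acid and 121 ± 2.91 FPKM in control. All 3 tested genes of the class overlapped between groups, and their fold changes lay between -0.02 and 0.05. IFITM1 had 10 reads with fatty acid and 11 in control. Other genes share 21.3% of the exonic bases of IFITM3, 22.7% of those of IFITM2 and 32.5% of those of IFITM1, and how reads in those bases were assigned was not tested.

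Of the interferon-inducible GTPases, the guanylate-binding proteins GBP1 and GBP2 rose, which act on pathogen membranes. GBP1 (chr1:89052319-89065360, minus strand) stood at 6.04, 6.99 and 7.23 FPKM with fatty acid, against 3.67, 4.62 and 4.63 FPKM in control. Replicate 1 was the lowest library of both groups, and the groups did not overlap (log2 fold change 0.60 ± 0.11, adjusted p = 0.0154), the call being lost without fatty acid replicate 2 (adjusted p = 0.075) or 3 (adjusted p = 0.0547). GBP2 (chr1:89106132-89150456, minus strand) stood at 13.4, 12.7 and 13.0 FPKM with fatty acid, against 8.94, 9.54 and 8.98 FPKM in control. Its 2 groups were narrow and far apart (13.0 ± 0.341 FPKM with fatty acid, 9.15 ± 0.335 FPKM in control, SD, n = 3 each), and its adjusted p of 0.00288 was the lowest of the list at a log2 fold change of 0.49 ± 0.06. MX1, which traps viral nucleocapsids, was called by voom but not by limma (log2 fold change 0.34 ± 0.14, adjusted p = 0.156), and MX2 was under the minimum with 54 reads with fatty acid and 28 in control.

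ISG15 is a ubiquitin-like protein that UBE2L6 and HERC5 attach to targets and USP18 removes. UBE2L6 (chr11:57551656-57568284, minus strand), the conjugating enzyme, stood at 30.5, 31.9 and 31.5 FPKM with fatty acid, against 24.3, 22.3 and 23.5 FPKM in control. All fatty acid libraries lay well above the controls (log2 fold change 0.42 ± 0.05, adjusted p = 0.00429). HERC5 (chr4:88457117-88506163, plus strand), the ligase, stood at 3.08, 2.95 and 2.83 FPKM with fatty acid, against 2.01, 2.22 and 2.20 FPKM in control. Its groups did not overlap (log2 fold change 0.39 ± 0.08, adjusted p = 0.0278), and of the fits without 1 library only that without control replicate 2 called it (adjusted p up to 0.119 in the others). ISG15 itself stood at 21.7, 20.4 and 24.2 FPKM with fatty acid, against 23.7, 23.8 and 19.7 FPKM in control. Its groups overlapped (log2 fold change -0.02, 95% interval -0.24 to 0.20). The interval lies below the estimates of UBE2L6 and HERC5, but that of HERC5 (0.19 to 0.58) overlaps it. Whether the genes differed in their change was not tested. USP18 and HERC6 were not called (log2 fold changes 0.07 ± 0.08 and 0.12 ± 0.10).

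DTX3L and PARP14 rose among the 3 genes of the PARP and DTX3L group, which encode a ubiquitin ligase and ADP-ribosyltransferases that act in interferon and DNA damage responses. DTX3L (chr3:122564238-122575203, plus strand) stood at 19.8, 22.0 and 19.6 FPKM with fatty acid, against 16.0, 15.0 and 14.4 FPKM in control. The groups did not overlap (log2 fold change 0.42 ± 0.07, adjusted p = 0.0105), with an adjusted p of 0.0512 once fatty acid replicate 2, the highest library, was left out. PARP14 (chr3:122680618-122730840, plus strand) stood at 9.71, 10.0 and 8.54 FPKM with fatty acid, against 7.46, 7.81 and 7.33 FPKM in control. Its rise was the smallest called (log2 fold change 0.30 ± 0.08, adjusted p = 0.0405), and of the fits without 1 library only that without fatty acid replicate 3 called it (adjusted p up to 0.153 in the others). PARP9, the partner of DTX3L, had a log2 fold change of 0.17 ± 0.08 and was not called (adjusted p = 0.171).

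Of 3 genes of the TRIM and nuclear body group 1 was called. TRIM22 (chr11:5689689-5737089, plus strand), an antiviral TRIM protein, stood at 18.0, 17.3 and 17.8 FPKM with fatty acid, against 12.3, 13.6 and 14.1 FPKM in control. The fatty acid values were close together and above the controls (log2 fold change 0.39 ± 0.06, adjusted p = 0.0108), with an adjusted p of 0.0623 without fatty acid replicate 1. It shares 10.7% of its exonic bases with another gene on the same strand. TRIM21, a cytosolic antibody receptor, missed the threshold (log2 fold change 0.30 ± 0.09, adjusted p = 0.063), as did the nuclear body gene SP110 (log2 fold change 0.12 ± 0.15). SAMD9 and SAMD9L, neighbouring genes whose proteins restrict poxviruses, both rose. SAMD9 (chr7:93099513-93118023, minus strand) stood at 7.18, 7.05 and 7.41 FPKM with fatty acid, against 5.04, 5.90 and 6.05 FPKM in control. SAMD9L (chr7:93130055-93148369, minus strand) stood at 6.05, 6.11 and 5.72 FPKM with fatty acid, against 4.33, 4.56 and 4.65 FPKM in control. Neither gene overlapped between groups, and the log2 fold changes were 0.33 ± 0.08 (adjusted p = 0.0392) for SAMD9 and 0.37 ± 0.07 (adjusted p = 0.0157) for SAMD9L. SAMD9L lost its call without fatty acid replicate 1 (adjusted p = 0.0806) or 2 (adjusted p = 0.0801), and SAMD9 without any library other than control replicate 1 (adjusted p up to 0.131).

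Of the 8 other inducible genes limma called PLSCR1 alone, and voom also called IFI44L and XAF1. PLSCR1 (chr3:146515180-146544864, minus strand), a phospholipid scramblase with antiviral activity, stood at 8.71, 7.38 and 8.05 FPKM with fatty acid, against 5.91, 5.50 and 5.89 FPKM in control. The groups did not overlap (log2 fold change 0.45 ± 0.08, adjusted p = 0.0133), with an adjusted p of 0.0647 without fatty acid replicate 1, the highest library. LGALS3BP, a secreted glycoprotein, stood at 128, 122 and 130 FPKM with fatty acid, against 152, 119 and 113 FPKM in control. Control replicate 1 was its highest library and control replicate 3 its lowest, so the fatty acid values lay within the control range (95% interval of the log2 fold change -0.25 to 0.24). IFI6, a mitochondrial and endoplasmic reticulum protein, showed the same order, with 64.1, 52.6 and 60.5 FPKM with fatty acid and 75.2, 54.0 and 46.8 FPKM in control. XAF1 and IFI44L had non-overlapping groups without a limma call (adjusted p = 0.0614 and 0.166), and IFI27, IFI35 and IFI44 overlapped. XAF1 shares 38.3% of its exonic bases with a gene on the opposite strand. The 3 genes of nucleotide and RNA degradation were under the minimum. RSAD2, which encodes viperin, had 1 read with fatty acid and 0 in control. Its neighbour CMPK2 had 4 reads with fatty acid and 2 in control, and the exonuclease gene ISG20 had 97 with fatty acid and 91 in control.

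**Figure D3:**
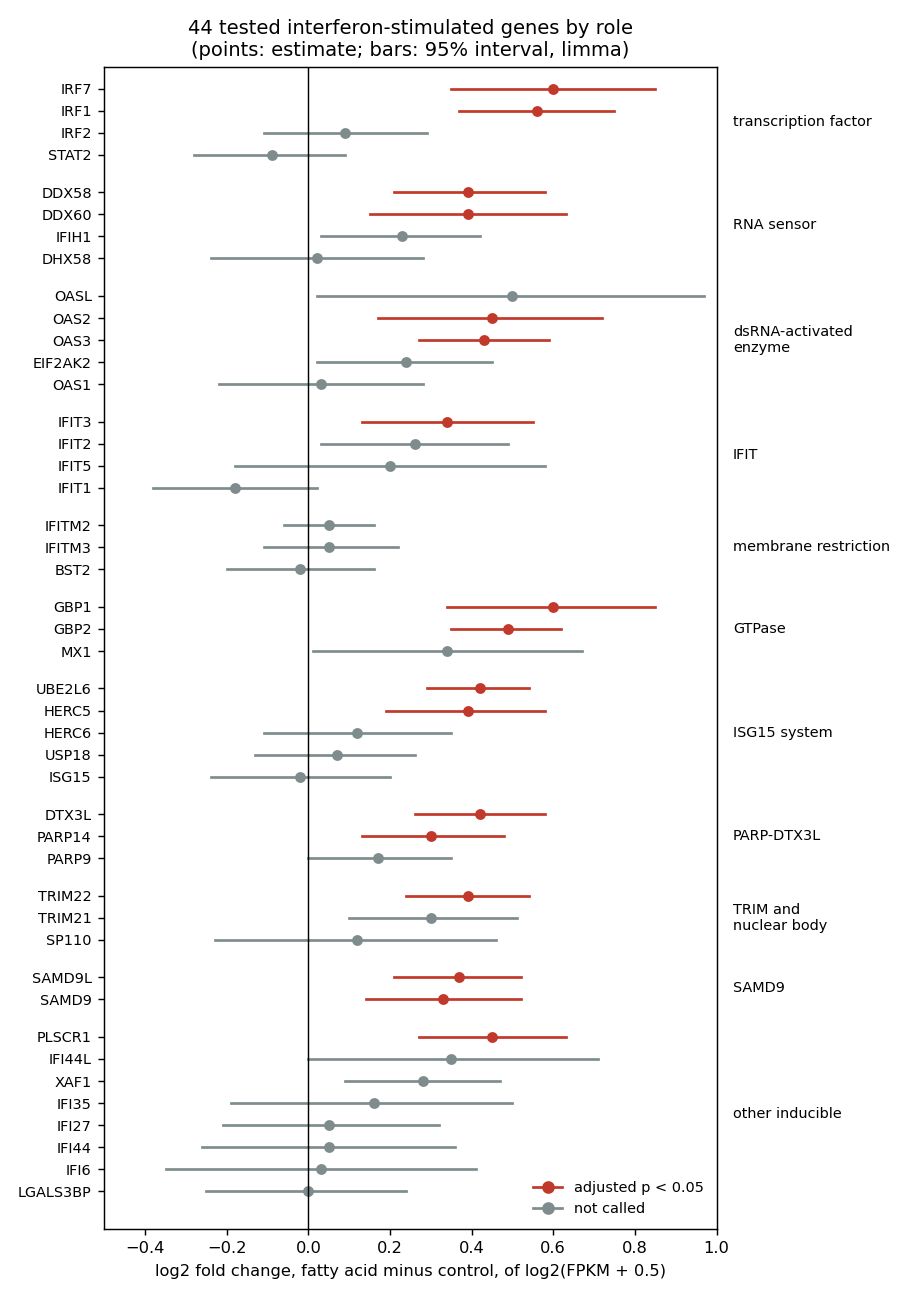
Log2 fold change, fatty acid minus control, of the 44 tested genes grouped by role (points, with 95% intervals from limma as bars; red, adjusted p under 0.05; grey, not called). The 17 red points lie between 0.30 and 0.60, and grey intervals of the membrane restriction genes lie close around 0.

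Over the 44 tested genes 39 fold changes were positive and 5 negative, 88.6% positive where all genes tested gave 57.2%. In 26 genes every fatty acid library was above every control, where 23.7% of all genes tested showed that pattern, in 1 gene every fatty acid library was below (13.3% of all genes), and in 17 the groups overlapped. All 17 called genes reached 0.1, the smallest two-sided p that an exact permutation of 3 against 3 libraries can give. So did 10 of the 27 uncalled genes, as this p follows from groups that do not overlap. Each fatty acid library showed the shift: the median of log2 deviations from the control mean over the 44 genes was 0.26, 0.23 and 0.25 in fatty acid replicates 1, 2 and 3, against 0.02, 0.02 and -0.02 in control replicates 1, 2 and 3. As every gene's deviations are taken from its own control mean, small control medians follow from the definition and are no test. Over all genes tested these medians were 0.05, 0.06 and 0.03 in the fatty acid libraries and 0.03, -0.01 and -0.02 in the control libraries. The fatty acid libraries were not alike within the list, since 24 genes were highest in replicate 3 and 25 were lowest in replicate 2 of that group. Control libraries were uneven as well, with 20, 16 and 8 genes highest in control replicates 1, 2 and 3. These ranks were not counted over all genes, so they need not be particular to the list.

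Called and uncalled genes differed in the range of their levels. The 17 called genes averaged 2.04 to 27.3 FPKM (median 5.53) and the 27 uncalled ones 0.676 to 446 FPKM (median 6.24). Of the 8 tested genes that averaged 20 FPKM or more, only UBE2L6 was called, whereas STAT2, IFITM2, IFITM3, BST2, ISG15, IFI6 and LGALS3BP were not. Summed over the 50 genes, the level was 1226, 1175.1 and 1231.3 FPKM in the fatty acid libraries, against 1233.7, 1155.8 and 1049.8 FPKM in the control libraries, so the sum, which IFITM3 leads, overlapped between groups. As a description over the 44 genes, the log2 fold change had a Spearman rho of -0.30 with mean FPKM (0.10 over all genes tested) and of 0.39 with gene length (0.17 over all genes tested). The median length was 6020 bases in called genes and 4015 bases in uncalled ones. The part of length in the calls was not tested.

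**Figure D4:**
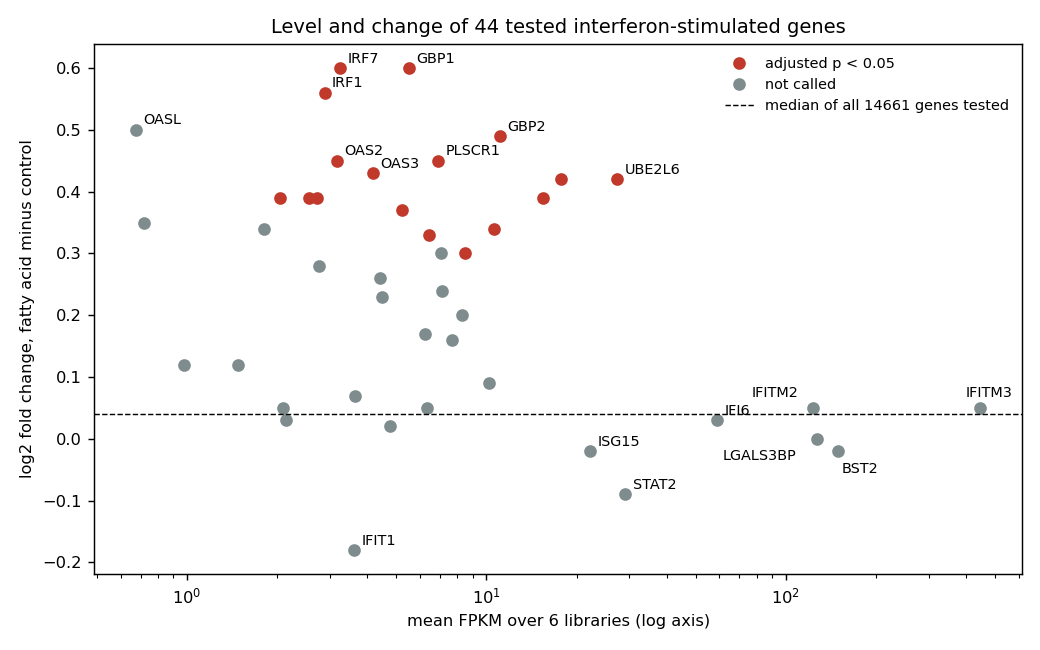
Log2 fold change, fatty acid minus control, against mean FPKM over the 6 libraries (log axis) for the 44 tested genes, with called genes in red, uncalled genes in grey and the median of all genes tested as a dashed line. Genes above 20 FPKM other than UBE2L6 lie near or below the dashed line, while the called genes lie between 2.04 and 27.3 FPKM.

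Many of the genes are neighbours, 25 of them in 10 clusters with gaps of at most 200 kb, and calls were not uniform within clusters. Whether a called gene differed in its change from an uncalled neighbour was not tested. Both genes were called in the GBP1 and GBP2 cluster (chr1:89052319-89150456) and in the SAMD9 and SAMD9L cluster (chr7:93099513-93148369). In the OAS cluster (chr12:112906777-113011723) OAS3 and OAS2 were called and OAS1 was not. DTX3L and PARP14 were called and PARP9 was not in the cluster on chr3:122527924-122730840, HERC5 but not HERC6 on chr4:88378739-88506163, and IFIT3 alone of 4 genes on chr10:89283694-89421001. The IFITM cluster (chr11:307631-327537) and the IFI44L and IFI44 pair held no gene called by limma. Reads that fit more than 1 gene of such families could have been assigned to either or dropped, which the table does not show.

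The rest of the pathway was read from a list of 75 further genes, of which 58 were tested, 14 were called higher and 0 lower by limma (3 lower at an unadjusted p under 0.05, and 21 higher and 2 lower by voom). This compares with 12.9% of all genes called in either direction by limma. By voom 12.6% of all genes were higher, and 1153 of 14661 were lower. Without fatty acid replicate 1 the limma count was 5 and without fatty acid replicate 2 it was 6. Over all genes the calls fell from 1891 to 462 and 486 in the same fits. The median log2 fold change of the 58 genes was 0.15. Of 10 ligand genes read 8 had no read in any library (IFNA1, IFNA2, IFNK, IFNW1, IFNG, IFNL1, IFNL2 and IFNL3), and the others, IFNE and IFNB1, had 13 reads in all with fatty acid and 10 in control.

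Among 6 receptor genes, IFNGR1, the ligand-binding chain for interferon-gamma, stood at 94.4, 94.1 and 94.1 FPKM with fatty acid, against 63.4, 61.2 and 64.1 FPKM in control. That is a wide separation of 2 narrow groups (log2 fold change 0.58 ± 0.04, adjusted p = 0.000374), and all 6 fits without 1 library called it. IFNAR1 rose less, at 18.3, 19 and 16.7 FPKM with fatty acid and 13.7, 15.1 and 15.0 FPKM in control (log2 fold change 0.29 ± 0.07, adjusted p = 0.0355), and was called in 1 of those 6 fits. JAK1, a kinase of both receptors, stood at 38.5, 38.3 and 34.2 FPKM with fatty acid, against 28.4, 31.6 and 28.9 FPKM in control (log2 fold change 0.31 ± 0.07, adjusted p = 0.0269), and was called in 3 of the 6 fits. JAK2 (log2 fold change 0.28 ± 0.09, adjusted p = 0.0763) and TYK2 (log2 fold change -0.32 ± 0.12, adjusted p = 0.118) were not called by limma, whereas voom called JAK2 higher and TYK2 lower, and TYK2 had every fatty acid library below every control.

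Of 5 inhibitors of the signal, 3 rose by limma. SOCS1, which blocks JAK kinases and is itself induced by interferon, stood at 5.37, 4.15 and 5.07 FPKM with fatty acid, against 2.09, 1.68 and 2.42 FPKM in control. Its log2 fold change of 1.07 ± 0.14 (adjusted p = 0.00411) was above that of every one of the 44 genes and was called in all 6 fits without 1 library, from 227 reads with fatty acid and 71 in control. SOCS3, a related inhibitor with a main role in interleukin-6 signalling, rose as well, with 12.9, 9.96 and 14.6 FPKM with fatty acid and 7.47, 5.83 and 8.14 FPKM in control (log2 fold change 0.76 ± 0.16, adjusted p = 0.0241, called in 4 of the 6 fits). PTPN2, a phosphatase of JAK and STAT proteins, had a log2 fold change of 0.39 ± 0.08 (adjusted p = 0.0201, called in 3 of the 6).

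Upstream of interferon production, limma called 1 of 11 tested genes, higher, while voom called 3 higher and 1 lower. TLR3, the endosomal receptor of double-stranded RNA, stood at 4.25, 4.33 and 4.24 FPKM with fatty acid, against 2.57, 2.54 and 2.84 FPKM in control (log2 fold change 0.60 ± 0.08, adjusted p = 0.00411, called in all 6 fits). IRF3, IRF5, TMEM173 (which encodes STING) and MAVS each had fatty acid values below all controls without a limma call (log2 fold changes -0.29 ± 0.10, -0.31 ± 0.16, -0.18 ± 0.08 and -0.17 ± 0.06). TBK1, IKBKE and TRIM25 had fatty acid values above all controls, also without a limma call (log2 fold changes 0.29 ± 0.09, 0.35 ± 0.12 and 0.18 ± 0.05). Over all genes tested, 13.3% showed the lower pattern and 23.7% the higher one. Of 32 other inducible genes, limma called 6 higher and voom 9. APOL1, a trypanosome lytic factor, stood at 30.6, 35.0 and 30.0 FPKM with fatty acid, against 22.3, 18.5 and 19.6 FPKM in control (log2 fold change 0.65 ± 0.09, adjusted p = 0.00519), and its relative APOL6 had a log2 fold change of 0.48 ± 0.08 (adjusted p = 0.0134). IFI16, a nuclear DNA sensor, had a log2 fold change of 0.47 ± 0.06 (adjusted p = 0.00284), and GBP3 one of 0.39 ± 0.08 (adjusted p = 0.0206). CXCL10, a chemokine for T cells, stood at 5.08, 3.31 and 3.73 FPKM with fatty acid, against 1.71, 2.28 and 2.81 FPKM in control (log2 fold change 0.72 ± 0.19, adjusted p = 0.0457). CXCL10 was called in 1 of the 6 fits without 1 library and TDRD7 (log2 fold change 0.31 ± 0.08, adjusted p = 0.0496) in none. The antigen presentation genes B2M, TAP1, PSMB8 and PSMB9 were not called.

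**Figure D5:**
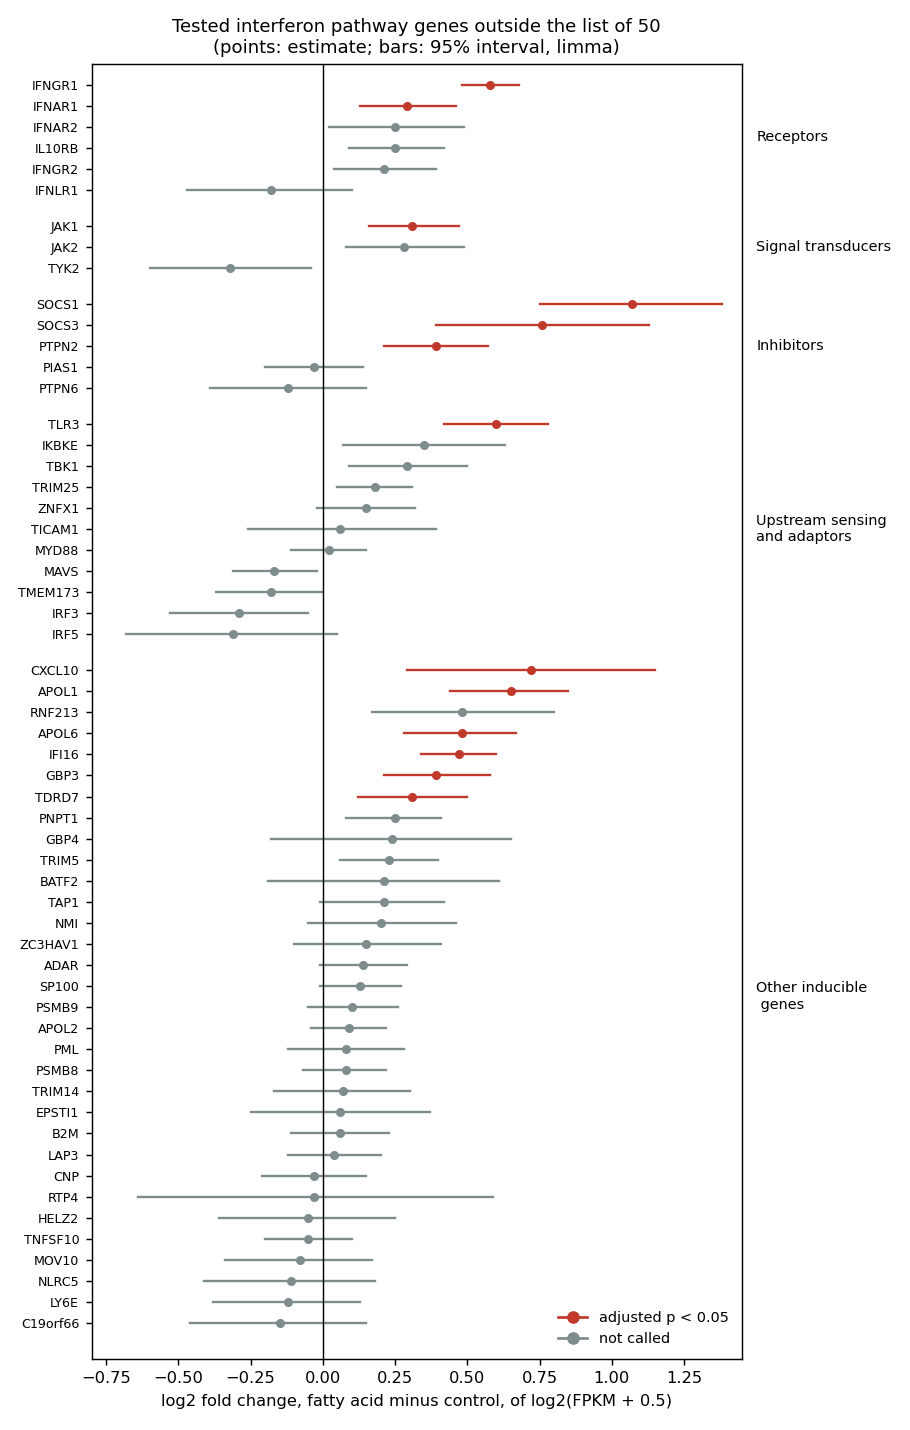
Log2 fold change, fatty acid minus control, of tested pathway genes outside the list, by role (points, with 95% intervals from limma as bars; red, adjusted p under 0.05; grey, not called). SOCS1 lies farthest to the right at 1.07, and the red points are all positive.

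Markers of other cell types were read beside the list. Of 11 immune markers, CD3E, MS4A1, NKG7, LILRA4 and CLEC4C had no read, CD14 and LYZ were tested and not called, and the summed level was 14.4 to 15.3 FPKM in the fatty acid libraries against 10.7 to 14.8 FPKM in the control libraries. PTPRC, which marks all leukocytes, had 5 reads with fatty acid and 0 in control. Among 3 endothelial markers none was tested and CDH5 had no read, with a summed level of 0.539 to 0.558 FPKM in the fatty acid libraries against 0.309 to 0.402 FPKM in the control libraries. Of 6 biliary markers 4 were tested and none was called by limma, EPCAM had no read, and the sum was 360 to 375 FPKM with fatty acid against 361 to 435 FPKM in control. Among 8 mesenchymal markers limma called LUM higher and none lower, and voom called 2 higher and 2 lower. COL1A1 (log2 fold change -0.62 ± 0.18, adjusted p = 0.0655) and COL3A1 (log2 fold change -0.30 ± 0.09, adjusted p = 0.06) had every fatty acid library below every control. THY1 had no read, and the sums were 117 to 125 FPKM with fatty acid and 100 to 110 FPKM in control. The part of the endothelial and mesenchymal markers in the values of the list was not tested.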

How the data were processed

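Per the labels' protocols, 100 ng of total RNA went into a stranded mRNA kit. STAR 2.5.2, Subread 1.5.1, featureCounts and GRCh38 are listed in the submitters' processing notes. Whether reads were counted by strand is not given in these sources. The authors deposited 1 table of FPKM values for 6 libraries, with gene position and length per the file headers. FPKM times gene length gave whole reads for 100% of the values fine enough to tell (tolerance 0.02 reads), which gives the depth.

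Groups came from the sample titles. Fatty acid was tested against control over all genes that averaged 0.5 FPKM or more, with limma 3.58.1 (R 4.3.3; trend, Benjamini-Hochberg over all genes tested, threshold 0.05) on log2(FPKM + 0.5). Every adjusted p in the text, and every call unless voom is named, is from limma. The test was tried on data simulated with the same spread setting for all genes. In these data 200 genes were changed, drawn from genes above a minimum of reads. It recovered 8% of genes changed 1.25-fold, 40% at 1.5-fold, 88% at 2-fold and 98% at 4-fold. Of its 128 calls 8.59% were unchanged genes, and 5 genes were called where none was changed. A gene that was not called can therefore still have changed by a small amount. The measured libraries gave 1891 calls, many more than the simulation, so the simulated rates need not hold for them. Values in every library are given for called genes of the list, the most abundant gene of each role and IRF and STAT genes; other genes named were chosen after their values were seen. The 50 genes, the pathway and marker lists and the tests were chosen with earlier results of these data known. Alternatives were pseudocounts of 0.1 and 1, no minimum or a minimum of 2 FPKM, 4 rescalings, no trend, a replicate block, voom on the recovered reads, an exact permutation test and leaving out each library. Promoters came from RefSeq (GRCh38.p14), and 49 of the 50 genes had the start and end of GENCODE 29, from which exonic overlaps were computed. Some genes of the lists are not reported here by name, though counts include them.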

Additional observations from a re-analysis of the deposited data

How the results depend on the processing

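The count of genes of the list called higher was 17. It was 10 with no minimum on FPKM, 5 to 14 with 1 library left out and 12 to 23 under the other alternatives, and 0 genes were called lower under any of them by limma or voom. The median log2 fold change of the list, 0.27, was 0.23 after median-of-ratios scaling, 0.21 with no minimum, 0.30 and 0.24 with pseudocounts of 0.1 and 1, 0.39 after rescaling to TPM, 0.22 scaled to nuclear reads, 0.31 by voom and 0.24 to 0.33 with 1 library left out. Over all genes the count of calls, 1891, was 1101 without the trend, 977 with no minimum, 3027 after rescaling to TPM, 2999 by voom and 462 to 1612 with 1 library left out. For the further pathway genes the count, 14, was 9 without the trend, 9 with no minimum, 23 after rescaling to TPM, 23 by voom and 5 to 13 with 1 library left out. Of the 17 called genes, 10 were called under all 11 alternative limma or voom fits that keep every library and 3 with each library left out. None could pass 0.05 in the exact permutation test, where all 17 had its smallest p of 0.1, as had 10 of the 27 uncalled genes.

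Signs turned only among uncalled genes. Leaving out 1 library could not turn the sign of a called gene, as the groups of all called genes do not overlap. DHX58 was at -0.03 after median-of-ratios scaling, -0.01 after quantile normalization, -0.03 scaled to nuclear reads and between -0.07 and 0.14 with 1 library left out. IFITM3 was at -0.00 after median-of-ratios scaling and scaled to nuclear reads and at -0.02 without control replicate 3. LGALS3BP was at 0.13 after rescaling to TPM and between -0.09 and 0.13 with 1 library left out (0.13 without control replicate 1 and 0.02 without fatty acid replicate 2), and STAT2 was at 0.04 after rescaling to TPM. The cause of these shifts was not tested.

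Correlations of the deviations of same-numbered libraries were weak (0.0122, 0.0836 and 0.0224). Those of differently numbered libraries lay between -0.094 and 0.0731. These values do not settle whether same-numbered libraries were matched. The fit with the replicate block called 13 genes of the list, 12 of them among the 17, and 1474 of all genes. With 8.36 to 15.94 M reads per fatty acid library and 6.33 to 11.82 M per control library, the genes of the list under 0.5 FPKM rest on 0 to 97 reads per group.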
